A study of Homo sapiens with 6 samples.

Results

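The BCL2 family genes are 10 genes chosen by symbol from the 21293 genes of the deposited table: the anti-apoptotic members BCL2, BCL2L1 and MCL1, the BH3-only members BCL2L11, BMF, BBC3, PMAIP1 and BID, and the effectors BAX and BAK1. All 10 were found, and all 10 had enough reads to be tested, with at least 10 normalized read counts on average over the libraries. The cells are H2087-LCC, selected in mice for latency competence (LCC) from a RAS-mutant line of human lung adenocarcinoma (LUAD), and RNA-seq covered 3 groups with 2 libraries each. The SB group received SB505124, an inhibitor of the TGFβ receptor that blocks signalling by TGFβ the cells make themselves, for 3 days. The other two groups received TGFβ for 3 days or for 7 days, and all 3 groups are the same cell population with no gene edit named in the labels. The comparisons asked what TGFβ changed at 3 days and at 7 days against receptor inhibition, and what changed between 3 and 7 days. SB was sampled at 3 days only, so 7 days of TGFβ and the longer culture cannot be told apart. The study calls paired libraries of this experiment technical replicates, so the errors and p-values may not cover the spread between cultures.

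Members of the BCL2 family decide whether the outer membrane of the mitochondrion stays intact. BAX and BAK (encoded by BAK1) can assemble into pores that release cytochrome c and start the caspase cascade, and BCL2, BCL-XL (encoded by BCL2L1) and MCL1 hold them in check. The BH3-only proteins sense stress, occupy the groove of the anti-apoptotic proteins and in some cases activate BAX and BAK directly. In epithelial cells TGFβ is known to act on this family, with BIM (encoded by BCL2L11) and BMF among the BH3-only genes linked to TGFβ-induced apoptosis, while MCL1 is a short-lived protein whose amount depends on continued synthesis.

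The promoters of BCL2L11 and BMF are shown because these genes moved furthest and in opposite directions. Sequences are the 250 bases before a transcription start in RefSeq (GRCh38.p14), written 5′ to 3′ on the strand of the gene. Capitals mark exact matches on either strand to the letters CAGAC (SMAD), GTAAACA (FOXO), TGANTCA (AP-1) or CAGGTG (E-box), and no match overlapped another in these 3 sequences. The BCL2L11 promoter lies at chr2:111120664-111120913 on the plus strand. For BMF 2 starts are listed, at chr15:40108880-40109129 and, inside the span of the gene, at chr15:40106967-40107216, both on the minus strand.
BCL2L11 promoter: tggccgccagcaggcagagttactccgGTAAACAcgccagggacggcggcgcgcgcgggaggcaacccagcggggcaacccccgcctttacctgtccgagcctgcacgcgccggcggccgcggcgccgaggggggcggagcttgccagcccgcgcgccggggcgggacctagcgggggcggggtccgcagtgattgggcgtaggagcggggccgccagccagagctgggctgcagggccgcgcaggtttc
BMF promoter, outer start: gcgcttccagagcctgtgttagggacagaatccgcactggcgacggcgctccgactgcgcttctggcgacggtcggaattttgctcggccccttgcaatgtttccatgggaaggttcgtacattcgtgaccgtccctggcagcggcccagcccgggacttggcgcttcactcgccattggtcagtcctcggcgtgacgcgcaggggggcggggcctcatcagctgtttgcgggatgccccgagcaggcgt
BMF promoter, inner start: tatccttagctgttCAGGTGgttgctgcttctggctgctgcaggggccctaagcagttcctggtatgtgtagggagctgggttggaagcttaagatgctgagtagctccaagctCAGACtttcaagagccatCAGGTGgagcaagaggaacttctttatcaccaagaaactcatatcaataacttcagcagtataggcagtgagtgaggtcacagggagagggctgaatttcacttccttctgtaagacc
The BCL2L11 promoter had a GC content of 76.8% and held 1 match, the FOXO letters starting at -223 relative to the transcription start. At the outer start of BMF the GC content was 65.2% and none of the 4 motifs was matched. The inner start of BMF had a GC content of 48.8%, the SMAD letters at -136 and the E-box letters at -236 and -118. Over the 35116 RefSeq promoters, the same length held the SMAD letters in 38.0%, the E-box letters in 17.5%, the AP-1 letters in 6.57% and the FOXO letters in 2.98%. Promoters were matched for 9 of the 10 members, 15 promoters in all, and MCL1 was the member without one. These matches describe the letters and no binding was measured.

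Over the members, 3 days of TGFβ called 4 of 10 against SB, a share of 40.0% where 29.0% of the 14395 genes tested were called. MCL1 and BMF rose and BCL2L11 and PMAIP1 fell, 2 in each direction, beside 14.9% of all genes higher and 14.0% lower. After 7 days, 8 of 10 were called against SB (80.0%, with 54.5% of all genes). MCL1, BMF and BID rose and BCL2, BCL2L1, BCL2L11, PMAIP1 and BAX fell, while 27.7% of all genes were higher and 26.9% lower. Between 3 and 7 days, 4 of 10 were called (33.2% of all genes), with BMF and BID higher and BCL2L1 and BCL2L11 lower; of all genes 17.0% were higher and 16.2% lower. BBC3 and BAK1 were called in none of the 3 comparisons by limma, with unadjusted p-values of 0.174 to 0.914. Both libraries of one group lay above both of the other for 5, 8 and 7 members in the order of those comparisons, and for 63.2%, 77.5% and 69.1% of all genes. The median log2 fold change over the members was -0.06, -0.22 and -0.06, against -0.02, 0.00 and 0.02 over all genes, and the median size of the change without its sign was 0.29, 0.63 and 0.36 against 0.24, 0.41 and 0.27. Fold changes are on the log2(normalized count + 1) scale, adjusted p-values are from limma with Benjamini-Hochberg adjustment over all genes tested at a threshold of 0.05, and the 3 comparisons share libraries pairwise.

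**Figure D1:**
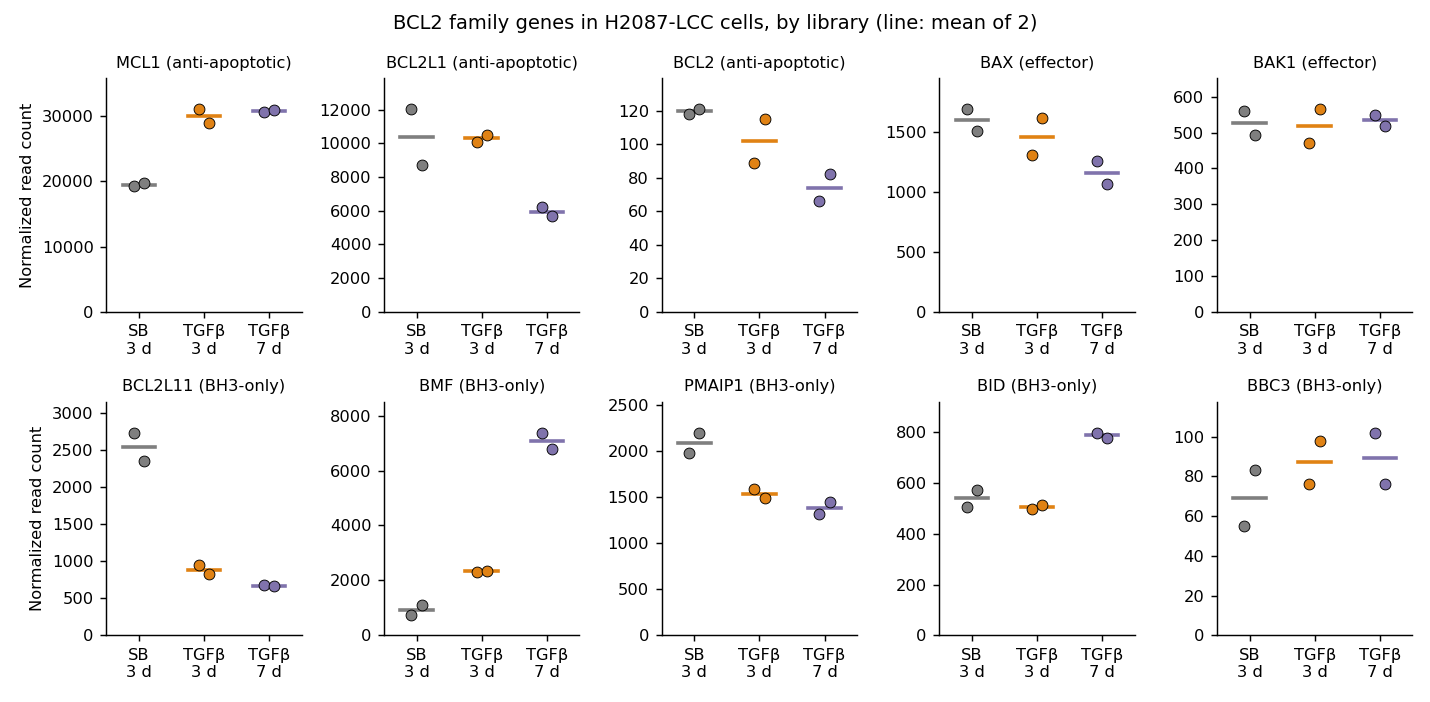
Each panel plots the normalized read count (linear axis from 0) of a BCL2 family gene in the SB, TGFβ 3-day and TGFβ 7-day libraries of H2087-LCC cells; points are libraries and lines are means of 2. BMF and BCL2L11 separate in all 3 groups in opposite directions, MCL1 steps up at 3 days, and BCL2L1 drops at 7 days.

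The groups carried the marks of their labels. The TGFβ response genes SMAD7, SKIL and FN1 rose at both times against SB, and SMAD7, a feedback inhibitor of the pathway, was counted at 112 and 79 in SB, 916 and 799 at 3 days and 854 and 747 at 7 days. The summed level of 6 epithelial markers ranged from 88277 to 112407, over genes that went different ways. CDH1 (371 and 635 in SB, 28 and 24 at 3 days, 10 and 9 at 7 days), EPCAM and KRT18 fell at both times against SB. KRT7 rose at both times (log2 1.50 at 3 days and 1.06 at 7 days, adjusted p 1.85e-06 and 1.57e-05), and KRT8 and KRT19 were not called. Haematopoietic markers (PTPRC, CD3E and CD14) summed to 4 to 10 and endothelial markers (PECAM1 and CDH5) to 53 to 72 in a library. Of the lung progenitor markers, SOX2 and NKX2-1 fell at both times, by 1.03 and 1.73 on the log2 scale at 7 days (adjusted p 0.000793 and 5.07e-08). SOX9 fell by 0.66 at 3 days (adjusted p 0.00118) and was above SB at 7 days (log2 0.38, adjusted p 0.0159). The normalized counts of a library summed to between 34306283 and 36340734, and from the spacing of low values 1 read was worth between 0.896 and 1.10 normalized counts, an estimated 32000000 to 40000000 assigned reads. Pearson's r between the paired libraries over genes on the log2 scale was 0.991 for SB and 0.995 for each TGFβ group. In these bulk libraries, fewer cells with a transcript and less of it per cell cannot be told apart.

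BCL2L11 encodes BIM, a BH3-only protein that binds all the main anti-apoptotic members. Its gene lies at chr2:111876955-111926021 on the plus strand (GRCh37, the build named hg19 in the submitters' notes). The normalized counts were 2737 and 2351 in SB, 948 and 823 after 3 days of TGFβ and 676 and 664 after 7 days. The 3 groups did not overlap, and the step between SB and 3 days was the larger of the steps. At 3 days the mean was 2.87-fold lower than in SB, with a log2 fold change of -1.52 (SE 0.12, adjusted p 1.47e-06). At 7 days it was 3.80-fold lower (log2 -1.92, adjusted p 8.39e-08). By log2 fold change, BCL2L11 stood at place 305 from the lowest of 14395 genes at both times. From 3 to 7 days it fell by 0.40 on the log2 scale (1.32-fold, adjusted p 0.0203), and this last call did not hold with unfiltered genes (adjusted p 0.0677), without the limma trend (0.0705) and without the first 3-day library or either 7-day library (0.0863 to 0.166). The gene lies wholly inside the span of the long noncoding RNA gene MIR4435-2HG on the opposite strand, with 727 shared exon bases, and the library kit does not mark strand; a value of MIR4435-2HG was not used here.

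BMF encodes a BH3-only protein known for its tie to the dynein light chain of the actomyosin cytoskeleton and for its release when cells lose attachment. The gene is at chr15:40380091-40401093 on the minus strand. Normalized counts of BMF were 747 and 1106 in SB, 2318 and 2339 at 3 days and 7381 and 6782 at 7 days. The groups did not overlap, and BMF moved in both steps, up to 3 days and on to 7 days. BMF rose 2.51-fold by 3 days (log2 fold change 1.36, SE 0.15, adjusted p 2.91e-05). By 7 days it had risen 7.64-fold over SB (log2 2.96, adjusted p 1.96e-08), and 3.04-fold over 3 days (log2 1.60, adjusted p 2.69e-05). It stood at place 452 from the highest of 14395 genes at 3 days, 228 at 7 days and 220 between the times. Leaving out a library moved the log2 fold change to between 1.07 and 1.64 at 3 days and between 2.68 and 3.24 at 7 days, with each call kept. BMF-AS1, on the opposite strand, shares 461 exon bases with BMF and was not used here.

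PMAIP1 encodes NOXA, a BH3-only protein that binds chiefly MCL1 and promotes its breakdown. It lies at chr18:57567228-57571537 on the plus strand. The libraries held 1977 and 2202 normalized counts in SB, 1588 and 1491 at 3 days and 1319 and 1453 at 7 days. Both TGFβ groups lay below SB without overlap. At 3 days PMAIP1 fell by 0.44 on the log2 scale (SE 0.10, adjusted p 0.00691), and at 7 days by 0.59 (adjusted p 0.00043), 1.36-fold and 1.51-fold below SB. Without the second 3-day library the fall at 3 days missed the threshold (log2 -0.39, adjusted p 0.0514). Between 3 and 7 days the difference was -0.15 (95% interval -0.37 to 0.07, adjusted p 0.273).

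BID links death receptors to mitochondria, since caspase-8 cuts the protein into its active form; its gene is at chr22:18216904-18257536 on the minus strand. The counts were 505 and 571 in SB, 498 and 513 at 3 days and 797 and 777 at 7 days. Both 7-day libraries lay above the other four, among which SB and 3 days overlapped. At 3 days the log2 difference from SB was -0.09 (95% interval -0.35 to 0.17, adjusted p 0.624). BID rose 1.46-fold over SB at 7 days (log2 0.55, SE 0.12, adjusted p 0.00195) and 1.56-fold over 3 days (log2 0.64, adjusted p 0.0021).

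BBC3 encodes PUMA, a BH3-only protein best known as a target of p53, and is at chr19:47724079-47736023 on the minus strand. It was counted at 55 and 83 in SB, 76 and 98 at 3 days and 102 and 76 at 7 days, with overlap between all pairs of groups. The log2 difference from SB was 0.35 at 3 days (95% interval -0.22 to 0.92, adjusted p 0.347) and 0.38 at 7 days (-0.19 to 0.95, adjusted p 0.24). At this depth a change of the size seen in MCL1 lies within those intervals.

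**Figure D2:**
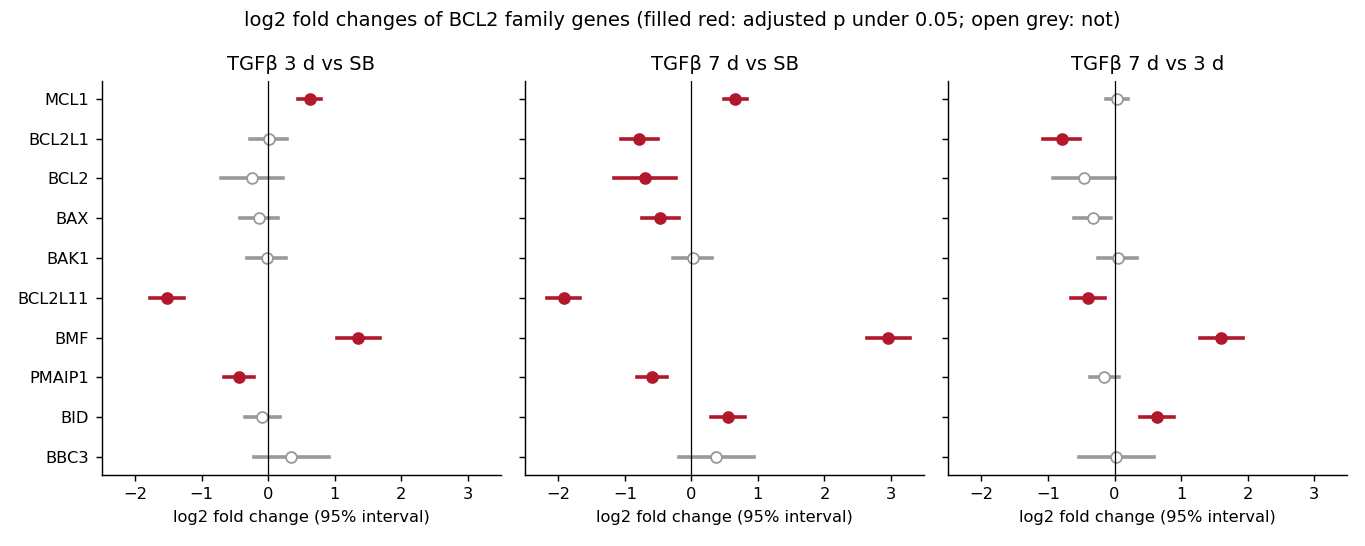
The log2 fold change of each of 10 BCL2 family genes (x axis, points with 95% intervals from limma) is plotted for TGFβ 3 days against SB, 7 days against SB and 7 days against 3 days. Filled red points are called at an adjusted p under 0.05; BMF at 2.96 and BCL2L11 at -1.92 lie furthest from 0 at 7 days, and the intervals of BBC3 and BAK1 cross 0 in all 3 panels.

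Among the anti-apoptotic members, MCL1 at chr1:150533371-150552214 (minus strand) was the highest per length. Its libraries held 19271 and 19702 normalized counts in SB, 31109 and 28873 at 3 days and 30649 and 30972 at 7 days. Both TGFβ groups lay above SB and overlapped with each other. MCL1 rose 1.54-fold at 3 days (log2 fold change 0.62, SE 0.08, adjusted p 8.6e-05) and 1.58-fold at 7 days (log2 0.66, adjusted p 2.29e-05). The difference between 3 and 7 days was 0.04 (95% interval -0.13 to 0.21, adjusted p 0.724). ADAMTSL4-AS1, which shares 328 exon bases with MCL1, was counted at 4 to 12.

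BCL2L1 is at chr20:30252255-30311792 on the minus strand and encodes BCL-XL, with a pro-apoptotic short form BCL-XS from the same gene that a gene-level count does not separate. Its normalized counts were 12040 and 8703 in SB, 10100 and 10465 at 3 days and 6233 and 5661 at 7 days. The SB libraries lay apart on either side of the 3-day values, with a mean of 10372 ± 2360 (SD, n = 2), and both 7-day libraries lay below the other four. At 3 days the log2 difference from SB was 0.01 (95% interval -0.27 to 0.28, adjusted p 0.976), and it was -0.05 with equal library totals. BCL2L1 fell by 0.79 on the log2 scale both against SB (1.74-fold, SE 0.13, adjusted p 0.000274) and against 3 days (1.73-fold, adjusted p 0.000929). With a library left out, the log2 fold change at 7 days ran from -1.02 to -0.55 against SB and from -0.86 to -0.72 against 3 days. ABALON on the opposite strand shares 1735 exon bases with BCL2L1 and was not used here.

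BCL2 itself, at chr18:60790579-60987361 on the minus strand, was the lowest member per length. It was counted at 118 and 121 in SB, 89 and 115 at 3 days and 66 and 82 at 7 days. The groups did not overlap, though the second 3-day library, at 115, lay just below the lower SB library, at 118. At 3 days the log2 difference from SB was -0.24 (95% interval -0.70 to 0.23, adjusted p 0.439). BCL2 fell by 0.69 at 7 days (1.61-fold, SE 0.21, adjusted p 0.016), which missed the threshold with the first 7-day library left out (log2 -0.54, adjusted p 0.13).

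Of the effectors, BAX (chr19:49458072-49465055, plus strand) was counted at 1696 and 1514 in SB, 1311 and 1617 at 3 days and 1261 and 1064 at 7 days. The 7-day libraries were the lowest, and SB and 3 days overlapped. BAX fell by 0.47 on the log2 scale from SB to 7 days (1.38-fold, SE 0.13, adjusted p 0.00841), but not past the threshold without the first SB library (adjusted p 0.0642), without the second 7-day library (0.102) or with unfiltered genes (0.0516). Its log2 difference at 3 days was -0.14 (95% interval -0.42 to 0.14, adjusted p 0.455), and between 3 and 7 days it was -0.33 (-0.61 to -0.05, adjusted p 0.0666). With median-of-ratios scaling the latter passed the threshold (-0.35, adjusted p 0.0464).

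BAK1 (chr6:33540324-33548070, minus strand) held 560 and 493 normalized counts in SB, 472 and 566 at 3 days and 549 and 519 at 7 days. All 3 groups overlapped. The log2 difference from SB was -0.02 at 3 days (95% interval -0.32 to 0.27, adjusted p 0.915) and 0.02 at 7 days (-0.27 to 0.32, adjusted p 0.897). Between 3 and 7 days it was 0.05 (-0.25 to 0.34, adjusted p 0.82). Whether the 2 effectors differ in their response was not tested.

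Ratios within a library follow the members against each other without the scaling between libraries. A ratio of normalized counts is not corrected for gene length, so its change between groups is what it shows. The SB libraries had a BMF to BCL2L11 ratio of 0.273 and 0.470, the 3-day libraries 2.44 and 2.84 and the 7-day libraries 10.9 and 10.2, a rise on the log2 scale of 2.88 by 3 days and 4.88 by 7 days. For MCL1 to BCL2L1 the ratio went from 1.60 and 2.26 (SB) to 3.08 and 2.76 (3 days) and 4.92 and 5.47 (7 days). Both ratios were ordered SB, 3 days, 7 days with no overlap. BMF to MCL1, a BH3-only transcript against an anti-apoptotic one, was 0.0388 and 0.0561 in SB, 0.0745 and 0.0810 at 3 days and 0.241 and 0.219 at 7 days. MCL1 to BCL2L11 was 7.04 and 8.38 in SB, 32.8 and 35.1 at 3 days and 45.3 and 46.6 at 7 days. Relative to MCL1, BMF thus gained and BCL2L11 lost, with no overlap between the groups in either ratio. BID to BAX was 0.298 and 0.377 in SB, 0.380 and 0.317 at 3 days and 0.632 and 0.730 at 7 days. BAX to BCL2 was 14.4 and 12.5 in SB, 14.7 and 14.1 at 3 days and 19.1 and 13.0 at 7 days, with overlap between all pairs of groups.

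**Figure D3:**
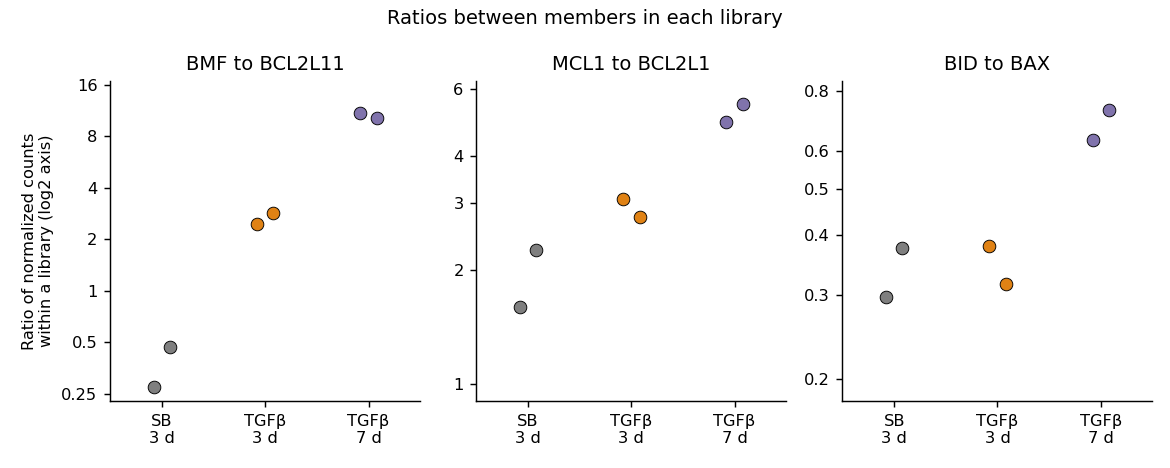
Ratios of normalized counts within each library (log2 axis) are plotted for BMF to BCL2L11, MCL1 to BCL2L1 and BID to BAX; points are libraries of the SB, TGFβ 3-day and TGFβ 7-day groups. BMF to BCL2L11 runs from 0.273 in the lowest SB library to 10.9 in the highest 7-day library, and BID to BAX separates at 7 days from the other groups.

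Levels of different members were compared per kilobase, as the normalized count divided by the length of the union of annotated exons. On this scale MCL1 had a mean of 3132 in SB, 4820 at 3 days and 4952 at 7 days, and BCL2L1 had 2471, 2450 and 1417. These were the first and the second of the 10 members in every group. BMF had 170 in SB, 428 at 3 days and 1300 at 7 days and went from place 7 to 5 to 3. BCL2L11 had 377, 131 and 99.4 and went from place 5 to 7 to 8. The ratio of BMF to BCL2L11 per kilobase was thus 0.451, 3.26 and 13.1. The order at the bottom did not move, with BBC3 at 21.7 to 27.9 and BCL2 at 5.87 to 9.48.

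Within the BH3-only members, PMAIP1 made up 58.1% of the summed level per kilobase in SB, 50.1% at 3 days and 28.3% at 7 days. BMF made up 10.3%, 30.4% and 58.1%, and BCL2L11 22.9%, 9.35% and 4.44%. Of these 5 members, PMAIP1 therefore led in SB and at 3 days, and BMF at 7 days. The 5 genes summed to 1647 in SB, then 1405 (3 days) and 2239 (7 days). Among the anti-apoptotic members MCL1 made up 55.8%, 66.2% and 77.7%, with nearly all the rest from BCL2L1 and at most 0.169% from BCL2, of summed levels of 5612, 7278 and 6375. BAX made up 72.3%, 70.7% and 65.1% of the effectors. Family genes outside the members, such as BIK, BAD and BCL2L2, were in none of these sums. With the length of the canonical transcript instead, an alternative added after the data were seen, BMF made up 9.49%, 28.2% and 54.3% of the BH3-only sum and BAX 89.3%, 88.5% and 85.6% of the effectors.

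**Figure D4:**
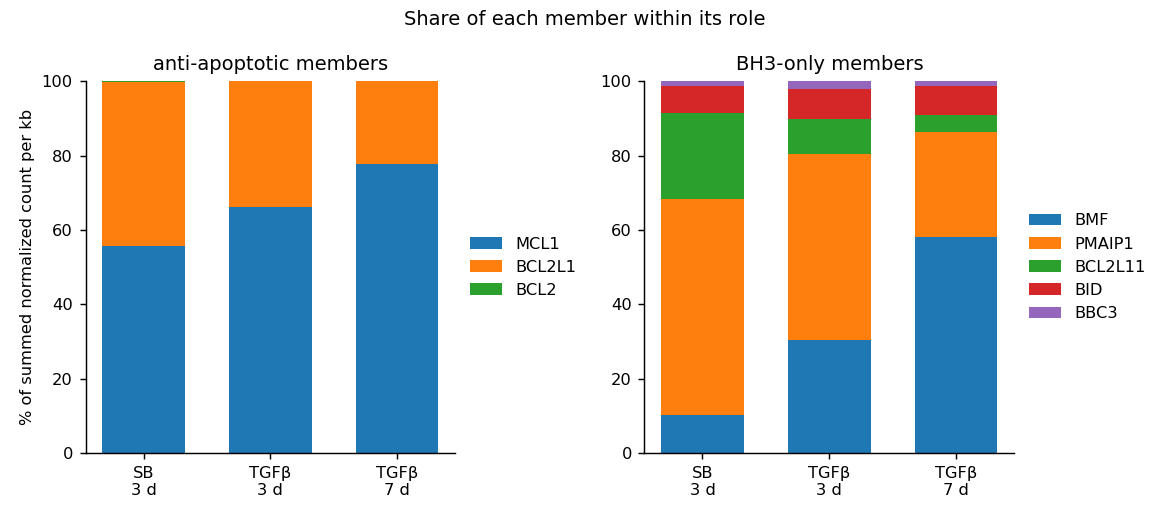
Stacked bars give the share (%) of each member in the summed normalized count per kilobase of the anti-apoptotic and the BH3-only members, from the group means of 2 libraries. MCL1 goes from 55.8% in SB to 77.7% at 7 days, BMF goes from 10.3% to 58.1%, and BCL2 is too small to be seen at up to 0.169%.

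Of 13 other BCL2 family genes, 9 were tested and BCL2A1, BCL2L10, BCL2L14 and HRK fell below the minimum. By limma 0 were higher and 1 lower at 3 days against SB, 3 higher and 3 lower at 7 days, and 3 higher and 0 lower between 3 and 7 days; at an unadjusted p under 0.05, 3 were higher at 3 days and 2 lower between the times. The shares called were 11.1%, 66.7% and 33.3%, beside 29.0%, 54.5% and 33.2% of all genes, and the median log2 fold changes were 0.15, -0.24 and 0.12. BNIP3, a mitochondrial protein of mitophagy, was counted at 2745 and 3211 in SB, 1664 and 1566 at 3 days and 2093 and 2219 at 7 days. It fell at 3 days (log2 -0.88, adjusted p 4.82e-05) and rose between 3 and 7 days (0.42, adjusted p 0.00899), staying below SB (-0.46, adjusted p 0.00226). Its relative BNIP3L was counted at 1826 and 2244, 2563 and 2274, and 3490 and 3914, and rose by 7 days (0.87, adjusted p 6.3e-05). BIK, a BH3-only gene, was at 172 and 192, 151 and 156, and 135 and 75, and fell by 7 days (-0.85, adjusted p 0.0114).

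Downstream of BAX and BAK, 17 of 18 genes of the caspase pathway and its inhibitors were tested. At 3 days 3 were higher and 5 lower than in SB, at 7 days 6 and 6, and between 3 and 7 days 2 and 3, with median log2 fold changes of -0.15, -0.15 and 0.02. In that order 47.1%, 70.6% and 29.4% of these genes were called, beside 29.0%, 54.5% and 33.2% of all genes. XIAP, which inhibits caspases directly, was counted at 2380 and 2683 in SB, 3821 and 3693 at 3 days and 4590 and 5124 at 7 days. It rose in every comparison, by 0.94 on the log2 scale at 7 days (adjusted p 7.31e-06). BIRC5 (survivin), which acts in mitosis as well, was at 4044 and 3530, 2655 and 2726, and 1838 and 1779, and fell by 1.06 at 7 days (adjusted p 2.45e-06). DFFA, the inhibitor of the caspase-activated nuclease, was at 2475 and 2533, 1951 and 2135, and 1432 and 1311, and fell by 0.87 (adjusted p 1.51e-05). The inhibitor XIAP and the inhibitors BIRC5 and DFFA thus moved in opposite directions.

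Among regulators and binding partners of the members, 18 of 19 were tested. At 3 days 4 were higher and 1 lower, at 7 days 6 and 5, and between 3 and 7 days 4 and 4, with medians of 0.08, 0.05 and 0.00. The shares called, 27.8%, 61.1% and 44.4%, stand beside the same 29.0%, 54.5% and 33.2% of all genes. FOXO1, of a transcription factor family known to act on BCL2L11, was counted at 113 and 178 in SB, 192 and 184 at 3 days and 497 and 570 at 7 days. It rose at 7 days against SB (log2 1.90, adjusted p 1.07e-05) and against 3 days (1.50, adjusted p 0.0003), and at 3 days the difference was 0.40 (adjusted p 0.156). FOXO4 was at 67 and 98, 133 and 126, and 232 and 229, and rose in all 3 comparisons (1.50 at 7 days, adjusted p 7.7e-05). TP73, a relative of p53, was at 35 and 54, 77 and 85, and 132 and 86, and rose against SB at 3 days (0.88, adjusted p 0.0317) and 7 days (1.27, adjusted p 0.00205). FOXO3, at 2222 and 2096, 2475 and 2309, and 2037 and 2047, was called in none of the comparisons by limma, with unadjusted p-values of 0.0275 to 0.395.

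Neighbouring genes on the chromosome were read for the 2 members that moved furthest, which was decided after values were seen. ACOXL ends 830 bases before BCL2L11 on the same strand and was counted at 590 and 732 in SB, 59 and 72 at 3 days and 2 and 5 at 7 days. ACOXL fell by 3.31 at 3 days on the log2 scale (SE 0.32, adjusted p 1.09e-05), where BCL2L11 fell by 1.52. On the other side of BCL2L11, ANAPC1 lies 443195 bases away and fell by 0.64 at 7 days (adjusted p 8.01e-05), with a difference of -0.18 at 3 days (adjusted p 0.14). Beside BMF, SRP14 rose by 0.68 at 7 days (adjusted p 3.72e-05) and BUB1B fell by 0.70 (adjusted p 3.26e-05), so the genes next to BMF moved in opposite directions and by less than BMF.

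For BMF, BCL2L11 and MCL1, the genes nearest in the pair of log2 fold changes against SB (Euclidean distance over 3 and 7 days) were taken from 11389 genes averaging at least 100 normalized counts. Nearest to BMF was WNT5A, a secreted WNT ligand, with 428 and 299 normalized counts in SB, 920 and 953 at 3 days and 2594 and 2824 at 7 days (distance 0.0523), followed by SLC37A2 (0.0833). ARRB2, which encodes a β-arrestin, was nearest to BCL2L11 with 925 and 1036, 342 and 333, and 251 and 251 (0.0421), followed by FAM89A (0.0514). SAMD15 (0.0099) and RCBTB2 (0.0203) were nearest to MCL1. This likeness rests on 6 libraries and is a description.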

How the data were processed

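RNA-seq of polyadenylated RNA was performed by the authors in 6 libraries of H2087-LCC cells with a kit that does not mark strand. Per the labels and the methods, reads were mapped to hg19 with STAR, assigned to genes with HTSeq 0.6.1p1 and normalized with DESeq2, whose version the submitters' notes give as 3.4; FastQC 0.11.5 is also named. The annotation release is not given in the sources used here. The deposited normalized counts are whole numbers, recorded here under the unit score, since the authors rescaled and rounded them; a count model was therefore not used. Reads in exon bases shared by genes on opposite strands cannot be told apart by strand.

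Values were transformed as log2(value + 1). Genes averaging at least 10 (14395 of 21293) entered limma 3.58.1 (empirical Bayes with trend, R 4.3.3) as a single fit of the 6 libraries, with 3 residual degrees of freedom and Benjamini-Hochberg adjustment at 0.05. An exact permutation test of 2 against 2 libraries cannot give a p below 0.333. On simulated data for 7 days against SB, 199 of 200 changed genes and 19 unchanged ones were called among 14367. No change smaller than 1 on the log2 scale was simulated. Recovery of sizes as small as that of BAX at 7 days against SB (log2 -0.47) was therefore not tested. The libraries' estimated depth of 32000000 to 40000000 reads covers counting error only.

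The members and the lists were chosen with earlier results of these data known. All members were named, with up to 3 genes of each list of other family genes, downstream genes and regulators that passed the threshold with the largest change, and the 2 genes nearest to each of 3 members. FOXO3, which passed the threshold in no comparison, was named outside this rule. Lengths and places were taken from GENCODE 44 on GRCh37 and promoters from RefSeq on GRCh38.p14. Alternatives were pseudocounts of 0.5 and 5, no filter or a mean of at least 50, 3 other scalings, no trend, only the 4 libraries compared, a replicate block and each library left out. A further TGFβ response gene is not reported here. Figures were drawn with matplotlib 3.10.9.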

Additional observations from a re-analysis of the deposited data

Results flagged for a closer look

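The effect of TGFβ on 4 members differed between 7 and 3 days by the limma test of that difference, which is the comparison of 7 with 3 days since both effects were taken against the same SB libraries. These 4 of 10 members (40.0%) stand beside 33.2% of all genes called in the same comparison. BMF rose further, with a difference of 1.60 on the log2 scale (adjusted p 2.69e-05). BID differed by 0.64 (adjusted p 0.0021) and BCL2L1 by -0.79 (adjusted p 0.000929), each without a call at 3 days against SB. BCL2L11 fell further by 0.40 (-0.40, adjusted p 0.0203), the call that was lost under several alternatives. Time in culture and length of TGFβ treatment cannot be told apart in these differences.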

How the results depend on the processing

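The number of members called stayed at 4 against SB at 3 days, 7 to 8 at 7 days and 3 to 5 between the times with all libraries kept, and at 3 to 4, 7 to 8 and 3 to 4 with 1 library left out. Of 300 values with all libraries kept, 294 kept their direction and side of the threshold, 3 missed it, 1 newly passed it and 2 changed sign; of 180 with a library left out the numbers were 160, 7, 1 and 12. The values that changed sign belonged to members not called: with equal library totals BCL2L1 at 3 days went to -0.049 and BAK1 at 7 days to -0.025, and leaving out a library spread BCL2L1 at 3 days from -0.23 to 0.24, BAX at 3 days from -0.289 to 0.013, BAK1 from -0.15 to 0.11 at 3 days, -0.069 to 0.114 at 7 days and -0.084 to 0.177 between the times, BID at 3 days from -0.18 to 0.0013, MCL1 between the times from -0.014 to 0.094 and BBC3 between the times from -0.18 to 0.24. BAX between 3 and 7 days newly passed without the first 3-day library (-0.48, adjusted p 0.0351). The cause of these shifts was not tested.

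Over all genes, equal library totals took the share of calls that were higher at 3 days from 51.5% to 41.6%. Between 3 and 7 days the 4775 calls went to 3042 without the filter on low values and 3122 without the trend, and leaving out a library gave 2294 to 5570; at 3 days the 4170 calls went to 2608 without the first 3-day library. Deviations of the first library from its group mean correlated over genes at 0.14 (SB and 3 days), -0.10 (SB and 7 days) and -0.29 (3 and 7 days). These values cannot settle whether same-numbered libraries were handled together. The replicate block kept 4, 8 and 4 members called, with 3943, 7546 and 4485 genes in all. With canonical transcript lengths the ratio of BMF to BCL2L11 per kilobase was 0.396 for SB (0.451 with union exons), 2.86 for 3 days (3.26) and 11.5 for 7 days (13.1). With 2 libraries a group, counting error and spread limit the precision of BCL2 and BBC3, the members with the lowest counts.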
